A study of Mus musculus with 6 samples.

Results

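The genes described here encode acute phase plasma proteins of the liver, namely the serum amyloid A genes Saa1, Saa2, Saa3 and Saa4, the orosomucoid genes Orm1, Orm2 and Orm3, haptoglobin (Hp), hemopexin (Hpx) and lipocalin 2 (Lcn2). They were chosen by symbol and matched to Ensembl identifiers in GENCODE for the mouse build GRCm38, and all 10 were found among the 55487 genes counted. All 10 were also among the 13296 genes with enough reads to be tested. RNA was sequenced from primary mouse hepatocytes that had been isolated, cultured and left untreated, in 3 libraries from Alb/MDA-9 mice and 3 from their wild-type (WT) littermates. Alb/MDA-9 mice were heterozygous for a transgene that puts human MDA-9/SDCBP (the scaffold protein syntenin, HA-tagged C-terminally) under the enhancer and core promoter of mouse albumin, which are active in hepatocytes. WT mice carried no transgene, and both groups shared the B6CBAF1 background and a regular chow diet. Each group's libraries are numbered 1 to 3 in the labels, which do not state whether different numbers are different animals or cultures; the p-values therefore rest on library-to-library spread, which may be technical. In bulk RNA, fewer cells of a type and less RNA per cell cannot be told apart.

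Acute phase proteins are secreted mainly by hepatocytes, and their plasma levels change within hours to days of infection or injury. In mice, interleukin-1 and tumour necrosis factor, acting through NF-kB, and the interleukin-6 family, acting through gp130 and STAT3, raise their transcription together with C/EBP factors, and glucocorticoids add to the response of several of them. Serum amyloid A proteins travel on high density lipoprotein, orosomucoids are plasma lipocalins that carry basic and neutral lipophilic compounds, haptoglobin and hemopexin capture free hemoglobin and heme, and lipocalin 2 withholds iron from bacteria by binding their siderophores.

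Between 16403918 and 19046739 gene reads per library lay on the annotated strand, and levels are given as CPM, the reads of a gene relative to the TMM-scaled library total. A count of 0 allows a level of up to 3 reads, or 0.151 to 0.181 CPM depending on the library, which covers counting error only. Both groups parted on the first principal component (55.5% of the variance), while the second (16.98%) set Alb/MDA-9 3 off against the remaining 5. Mouse Sdcbp averaged 175 ± 5.66 CPM in Alb/MDA-9 and 172 ± 6.94 CPM in WT (SD, n = 3 each), which does not check the labels because the transgene is human. All 12 hepatocyte markers were tested, of which 2 were higher in Alb/MDA-9 (Apob and Trf) and 2 were lower (Serpina1a, log2 change -0.88, and Serpina1b, -0.31), with a median log2 change of -0.12. Without single libraries 1 (WT 2) to 5 (Alb/MDA-9 3) were higher and 1 (Alb/MDA-9 2, WT 2 or WT 3) to 4 (Alb/MDA-9 1) were lower. Their summed level, most of it albumin, was 83983 to 99009 CPM in Alb/MDA-9 and 80775 to 84308 CPM in WT. Markers of other liver cells moved with genotype. Of 12 Kupffer cell and macrophage markers 9 were lower in Alb/MDA-9 (6 to 10 without single libraries) and none was higher. Endothelial markers were lower for 4 of 8 (3 without Alb/MDA-9 2, WT 1 or WT 2). Among 8 stellate cell markers 5 were lower (2 to 3 without Alb/MDA-9 2, WT 1, WT 2 or WT 3). Biliary markers were higher for 3 of 5 tested and lower for 1. These calls are at an edgeR adjusted p under 0.05.

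Of the 10 genes, 5 were higher in Alb/MDA-9 (Hp, Saa3, Hpx, Orm1 and Saa1), 1 was lower (Orm3), and 4 did not pass the test (Saa2, Saa4, Orm2 and Lcn2). The test was edgeR's quasi-likelihood test on the deposited counts at a Benjamini-Hochberg adjusted p under 0.05, and every log2 change is Alb/MDA-9 over WT. Over all 13296 genes tested the same call was made for 7.35% in the higher direction and 7.09% in the lower, and 14.4% in either (977 genes higher and 943 lower, but 525 higher and 1622 lower with scaling to library totals). All 5 higher genes and the lower gene also had groups of libraries that did not overlap, which held for 17.1% of all genes tested in the higher direction, 16.5% in the lower and 33.6% in either. The median log2 change was 0.24 over the 10 genes and -0.00 over all genes tested. Together the 10 genes took 2.71% ± 0.179 of gene reads in Alb/MDA-9 and 2.31% ± 0.0250 in WT (SD, n = 3 each). The number of the 10 genes called higher varied when single libraries were omitted. It was 3 after omission of Alb/MDA-9 2, 3 after that of WT 1 and 2 after that of WT 2. Omission of Alb/MDA-9 3 left it at 5. In the same order, these fits called 552, 599, 503 and 1178 of all genes higher, beside 977 with every library. The number called lower was 0 after omission of WT 1. That fit called 569 of all genes lower, beside 943 with every library. The falls were therefore not confined to the 10 genes.

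**Figure D1:**
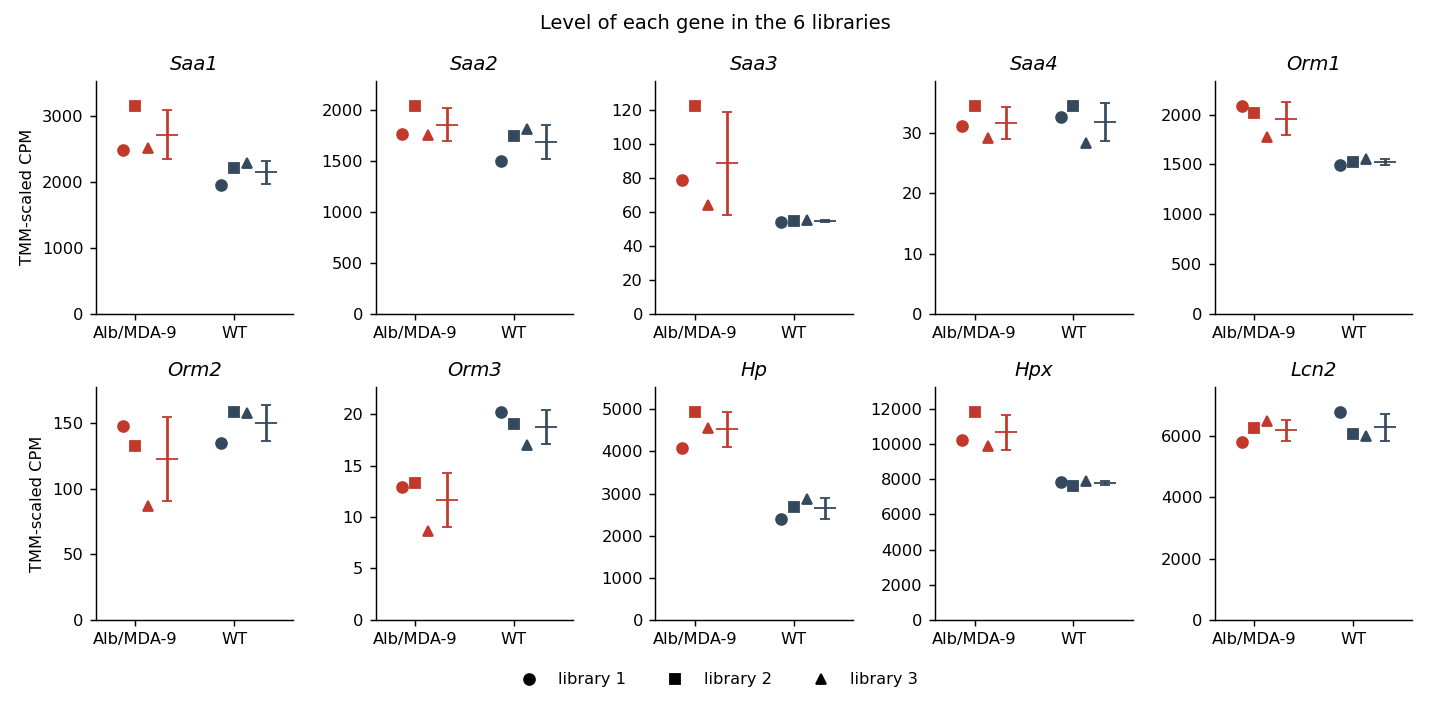
Level of each of the 10 genes in CPM (TMM-scaled, vertical axes from 0) in the 3 Alb/MDA-9 libraries (left of each panel) and the 3 WT libraries (right); bars give the mean and SD of 3 libraries. For Hp the Alb/MDA-9 libraries lie between 4088 and 4935 CPM and the WT libraries between 2385 and 2876 CPM, whereas for Lcn2 both groups overlap.

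**Figure D2:**
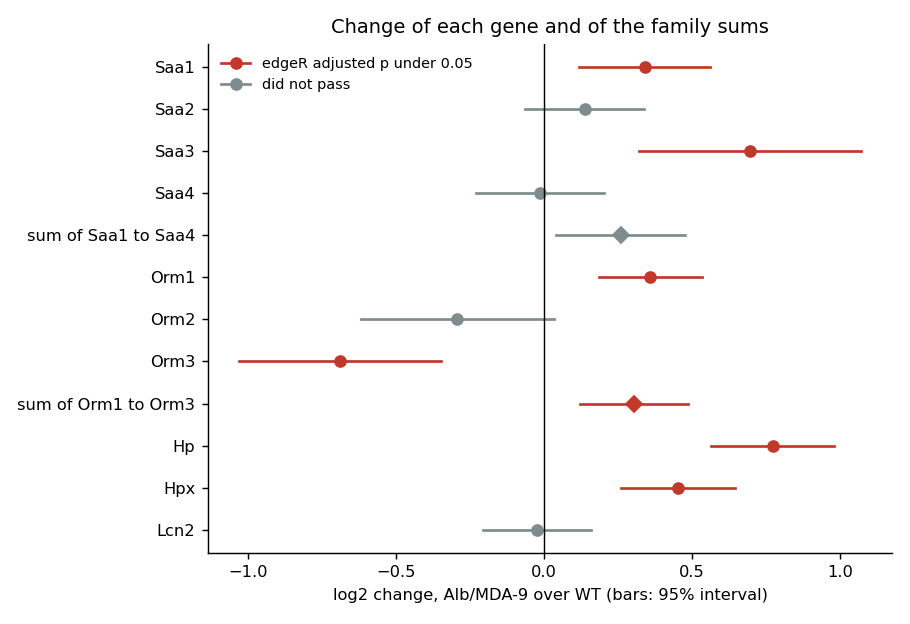
log2 change of each gene, Alb/MDA-9 over WT, with its 95% interval from the edgeR model; circles are genes, diamonds the summed reads of a family, red passed the adjusted p of 0.05 and grey did not. Hp lies at 0.77, Saa3 at 0.70 and Orm3 at -0.69, and the intervals of Saa2, Saa4, Orm2 and Lcn2 include 0.

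Levels per length differed widely among the genes. In RPKM, which divides CPM by the kilobases of the coding transcript, Hpx averaged 7116 ± 679 and Lcn2 6808 ± 379 in Alb/MDA-9 (SD, n = 3), and the libraries of these neighbours overlapped. They were followed by Saa1 at 4454 ± 617, Hp at 3364 ± 315, Saa2 at 3056 ± 266 and Orm1 at 2528 ± 215 RPKM, of which only the neighbours Hp and Saa2 overlapped. Saa3 at 159.6 ± 54.5 and Orm2 at 158 ± 41.2 RPKM overlapped in Alb/MDA-9, as did Saa4 at 15.1 ± 1.27 and Orm3 at 15.0 ± 3.39. In WT, Lcn2 stood first at 6916 ± 479 RPKM, above Hpx at 5197 ± 92.8, Saa1 at 3518 ± 290.4 and Saa2 at 2776 ± 271, with no overlap between neighbours. Orm1 and Hp followed in WT at 1969 ± 39.7 and 1969 ± 184 RPKM and overlapped, and Orm2 at 193 ± 17.4, Saa3 at 98.5 ± 1.34, Orm3 at 24.3 ± 2.11 and Saa4 at 15.2 ± 1.53 were each apart from the next. Thus Hp lay above Saa2 and Orm1 in mean level in Alb/MDA-9 and level with Orm1 in WT. These orders depend on the length used: over all annotated exon bases, which for Saa1 number 2478 instead of 609 in its coding transcript, Saa1 averaged 1095 RPKM in Alb/MDA-9 and 865 RPKM in WT. On that length Hpx stood first in both groups, Lcn2 averaged 2357 RPKM in Alb/MDA-9, below Hp at 2818 and Orm1 at 2528, and in WT Lcn2 averaged 2394 RPKM, below Hpx at 5197.

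Among the serum amyloid A genes, which lie side by side on chromosome 7, Saa3 and Saa1 were higher in Alb/MDA-9 and Saa2 and Saa4 did not pass the test. Saa1 and Saa2 are the main acute phase forms made by mouse liver, Saa3 is made by macrophages and fat cells as well as by liver, and Saa4 is the constitutive form. The promoters of Saa1, Saa2 and Saa3 are shown because Saa1 and Saa3 passed the test and Saa2, whose promoter is almost the same as that of Saa1, did not; all 3 hold a C/EBP-type motif. The sequences are from RefSeq (build GRCm38.p6) and run from 250 bases before to 50 bases after the annotated start, 5′ to 3′ on the gene's strand, with the match to TTGCNNAA on either strand in capitals. They lie at chr7:46742931-46743230 (minus strand, Saa1), chr7:46751583-46751882 (plus strand, Saa2) and chr7:46715627-46715926 (minus strand, Saa3).
Saa1: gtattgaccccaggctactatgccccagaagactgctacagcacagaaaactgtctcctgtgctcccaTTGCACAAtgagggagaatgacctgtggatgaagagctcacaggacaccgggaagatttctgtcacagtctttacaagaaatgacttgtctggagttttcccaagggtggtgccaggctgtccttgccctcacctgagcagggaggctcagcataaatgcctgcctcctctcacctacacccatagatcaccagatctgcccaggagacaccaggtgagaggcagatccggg
Saa2: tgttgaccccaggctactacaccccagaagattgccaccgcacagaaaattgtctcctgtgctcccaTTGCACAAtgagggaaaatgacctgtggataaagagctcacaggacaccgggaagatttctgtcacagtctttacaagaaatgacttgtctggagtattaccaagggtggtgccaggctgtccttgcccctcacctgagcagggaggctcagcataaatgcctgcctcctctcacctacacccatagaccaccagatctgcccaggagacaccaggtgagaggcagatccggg
Saa3: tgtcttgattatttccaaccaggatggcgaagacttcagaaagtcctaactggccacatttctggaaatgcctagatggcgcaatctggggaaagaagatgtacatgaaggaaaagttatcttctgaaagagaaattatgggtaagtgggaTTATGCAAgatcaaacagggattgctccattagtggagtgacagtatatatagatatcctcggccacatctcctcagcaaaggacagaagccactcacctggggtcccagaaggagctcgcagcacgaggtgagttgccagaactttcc
The match begins at position -182 in Saa1, -183 in Saa2 and -99 in Saa3, counted from the start as +1 with no base 0. The Saa1 and Saa2 promoters were identical at 287 aligned bases and differed at 12 (96.0% identity), and both hold the same 8 letters at the motif.

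Saa1 (ENSMUSG00000074115, chr7:46740497-46742980, minus strand) had 2479, 3146 and 2512 CPM in Alb/MDA-9 1 to 3, against 1942, 2211 and 2275 CPM in WT 1 to 3. Every Alb/MDA-9 library lay above every WT library, by the smallest margin between Alb/MDA-9 1 and WT 3. The log2 change was 0.34 (SE 0.10, 95% interval 0.12 to 0.56), a fold of 1.27, with an edgeR adjusted p of 0.0440. This call was near its limit: the adjusted p was 0.204 and the log2 change 0.22 without Alb/MDA-9 2, and the adjusted p was 0.149, 0.116 and 0.0725 without WT 1, WT 2 and WT 3.

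Saa2 (ENSMUSG00000057465, chr7:46751790-46754313, plus strand), which is divergently transcribed beside Saa1, had 1766, 2037 and 1752 CPM in Alb/MDA-9, against 1497, 1742 and 1809 CPM in WT. The groups overlapped, since WT 3 lay above Alb/MDA-9 1 and 3. Its log2 change was 0.14 (SE 0.09, 95% interval -0.06 to 0.34, adjusted p 0.358 by edgeR), and 0.06 without Alb/MDA-9 2, 0.06 without WT 1 and 0.03 with scaling to library totals. Of the reads of this pair, Saa1 took 58.4%, 60.7% and 58.9% in Alb/MDA-9 and 56.5%, 55.9% and 55.7% in WT. The shares did not overlap, with a two-sided exact permutation p of 0.1, the smallest that 3 against 3 libraries allow (0.14 adjusted over the 7 shares compared). The shares of Saa3 (1.86% ± 0.411 in Alb/MDA-9 and 1.40% ± 0.108 in WT) and Saa4 (0.678% ± 0.0368 in Alb/MDA-9 and 0.821% ± 0.128 in WT) in the reads of all 4 genes overlapped between groups (SD, n = 3 each; exact permutation p = 0.2 for each).

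Saa3 (ENSMUSG00000040026, chr7:46711998-46715700, minus strand) had 79.1, 122 and 64.2 CPM in Alb/MDA-9, against 53.8, 54.9 and 55.3 CPM in WT. The groups did not overlap, and the Alb/MDA-9 libraries were far more spread than those of WT, with Alb/MDA-9 2 highest. The log2 change was 0.70 (SE 0.17, 95% interval 0.32 to 1.07), a fold of 1.62, with an edgeR adjusted p of 0.0180. Without Alb/MDA-9 2 the log2 change was 0.39 (adjusted p 0.0340), and the call was lost without WT 1 (adjusted p 0.0673), without WT 2 (0.0614) and with DESeq2 (0.0858). Macrophage markers ran the other way: of 12 Kupffer cell and macrophage markers 9 were lower in Alb/MDA-9 and none was higher (edgeR adjusted p under 0.05). Those lower numbered 6 without WT 1 or WT 2, 7 without Alb/MDA-9 1 or Alb/MDA-9 2, and 10 without Alb/MDA-9 3. The 12 markers summed to 242 to 396 CPM in Alb/MDA-9 and 419 to 431 CPM in WT, and none of them was at 0. Most of this sum was Cd68, at 322, 284 and 137 CPM in Alb/MDA-9 1 to 3 and 262, 267 and 284 CPM in WT 1 to 3. Cd68 overlapped between groups and was not called (adjusted p 0.743 by edgeR). The part of these markers in the Saa3 result was not tested.

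Saa4 (ENSMUSG00000040017, chr7:46727998-46732603, minus strand) had 31.3, 34.5 and 29.2 CPM in Alb/MDA-9, against 32.8, 34.6 and 28.3 CPM in WT. The groups covered nearly the same range. Its log2 change was -0.01 (SE 0.10, 95% interval -0.23 to 0.20, adjusted p 0.955 by edgeR). The reads of Saa1 to Saa4 summed to 4685 ± 568 CPM in Alb/MDA-9 and 3912 ± 341 CPM in WT (SD, n = 3 each), a log2 change of 0.26 (SE 0.10) that did not pass the edgeR test (adjusted p 0.1096). It passed with DESeq2 (0.0443), with voom and quality weights (0.0242), without the filter on low counts (0.0124) and without Alb/MDA-9 3 (0.0268).

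The 3 orosomucoid genes, neighbours on chromosome 4 and all on the plus strand, did not move together: Orm1 was higher in Alb/MDA-9, Orm3 was lower, and Orm2 lay below WT in mean without passing the test. They encode alpha-1-acid glycoprotein, the plasma carrier of many basic drugs. The promoters of Orm2 and Orm3 are shown, as the pair whose mean levels were both lower in Alb/MDA-9, though only Orm3 passed the test. They come from the same RefSeq table, at chr4:63362199-63362498 (Orm2) and chr4:63355908-63356207 (Orm3), with the TTGCNNAA match in capitals and, in Orm3, a further 7 letters that match CTGGGAA, an interleukin-6 response element, on the opposite strand.
Orm2: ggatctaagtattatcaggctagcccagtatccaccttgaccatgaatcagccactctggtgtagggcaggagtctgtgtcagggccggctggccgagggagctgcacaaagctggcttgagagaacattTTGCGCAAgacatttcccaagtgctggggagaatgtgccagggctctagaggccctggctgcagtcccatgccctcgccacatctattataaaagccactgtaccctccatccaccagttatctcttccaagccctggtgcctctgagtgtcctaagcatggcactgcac
Orm3: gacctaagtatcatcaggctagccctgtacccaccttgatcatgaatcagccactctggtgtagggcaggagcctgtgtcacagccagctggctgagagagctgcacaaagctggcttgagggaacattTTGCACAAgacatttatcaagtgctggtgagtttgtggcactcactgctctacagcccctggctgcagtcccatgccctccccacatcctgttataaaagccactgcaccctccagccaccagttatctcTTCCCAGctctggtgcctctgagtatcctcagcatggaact
The C/EBP-type match begins at -120 in Orm2 and -121 in Orm3, and the CTGGGAA match at +10 in Orm3. Both promoters also hold a TATAAA run, at -33 and -29, and the aligned bases were 89.2% identical. A TTGCNNAA match was found in all 8 of the 10 genes' promoters that the table holds (those of Saa1, Saa2, Saa3, Saa4, Orm2, Orm3, Hpx and Lcn2), and in 10.8% of all 32851 promoters of the same length. The CTGGGAA letters occurred in 1 of the 8 and 11.1% of all promoters, TATAAA in 2 of the 8 and 13.6%, the STAT-type letters TTCNNNGAA in 0 of the 8 and 8.30%, and the kB motif in 0 of the 8 and 8.46%. Such matches describe letters in this window only. The motifs were chosen after these promoters had been seen. The 8 are also not independent, since the promoters of Saa1 and Saa2 (96.0%) and of Orm2 and Orm3 (89.2%) were nearly identical. All 8 beside 10.8% is therefore a description and no test.

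Orm1 (ENSMUSG00000039196, chr4:63344560-63348163) had 2089, 2018 and 1772 CPM in Alb/MDA-9, against 1495, 1528 and 1556 CPM in WT. The groups were well apart, and Alb/MDA-9 3 was the lowest of its group. For Orm1 the log2 change was 0.36 (SE 0.08, 95% interval 0.19 to 0.53), a fold of 1.28, with an edgeR adjusted p of 0.00996. The adjusted p was 0.0546 without Alb/MDA-9 2 and 0.0589 without WT 2.

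Orm2 (ENSMUSG00000061540, chr4:63362449-63365878) had 148, 133 and 86.6 CPM in Alb/MDA-9, against 134, 158 and 157 CPM in WT. The groups overlapped, with Alb/MDA-9 3 far below the other libraries. The log2 change was -0.29 (SE 0.15, 95% interval -0.62 to 0.04, adjusted p 0.230 by edgeR). It was -0.10 without Alb/MDA-9 3 and -0.45 without Alb/MDA-9 1, and Orm2 passed as lower only when no filter on low counts was used (0.00475).

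Orm3 (ENSMUSG00000028359, chr4:63356162-63359511) was by far the weakest of the family in reads, with 12.9, 13.3 and 8.61 CPM in Alb/MDA-9, against 20.2, 19.1 and 17.0 CPM in WT. Every Alb/MDA-9 library lay below every WT library. The log2 change was -0.69 (SE 0.16, 95% interval -1.03 to -0.35), a fold of 0.620, with an edgeR adjusted p of 0.0113, and the call was lost without WT 1 (0.0533).

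**Figure D3:**
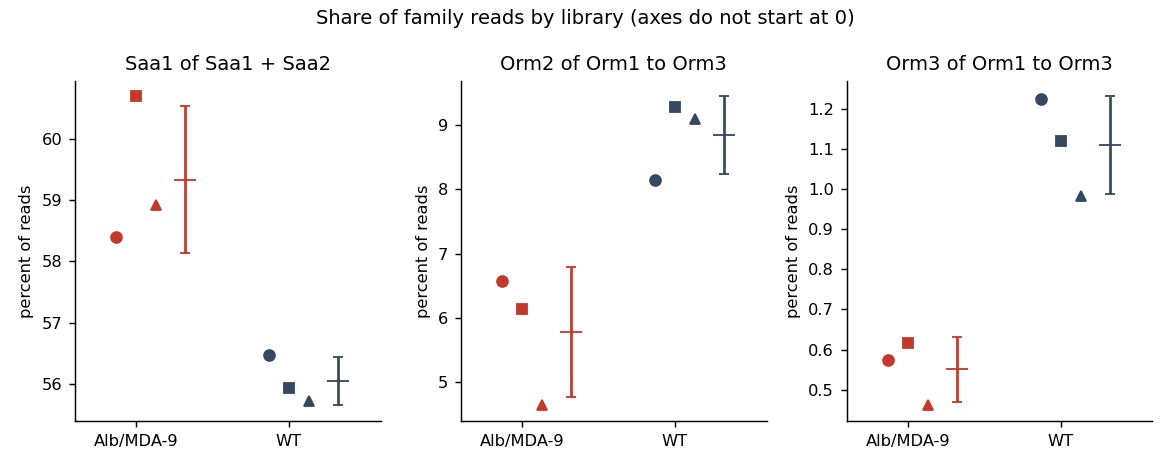
Percent of reads by library for Saa1 within Saa1 plus Saa2, and for Orm2 and Orm3 within Orm1 to Orm3, Alb/MDA-9 left and WT right, with the mean and SD of 3 libraries; vertical axes do not start at 0. No share overlaps between groups: Orm3 takes 0.461% to 0.616% of orosomucoid reads in Alb/MDA-9 and 0.981% to 1.22% in WT.

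The make-up of the orosomucoid reads differed accordingly. Orm1 took 93.7% ± 1.09 of the reads of the family in Alb/MDA-9 and 90.1% ± 0.523 in WT (SD, n = 3 each). Orm2 took 5.78% ± 1.01 in Alb/MDA-9 and 8.84% ± 0.605 in WT, and Orm3 took 0.551% ± 0.0803 in Alb/MDA-9 and 1.11% ± 0.122 in WT. None of these 3 shares overlapped between groups (two-sided exact permutation p = 0.1, the smallest possible, and 0.14 adjusted over 7 shares). The summed reads of Orm1 to Orm3 came to 2094 ± 201 CPM in Alb/MDA-9 and 1695 ± 41.5 CPM in WT, a log2 change of 0.30 (SE 0.08) with an edgeR adjusted p of 0.0288. That call was lost without any of the libraries Alb/MDA-9 1, Alb/MDA-9 2, WT 1, WT 2 and WT 3 (adjusted p 0.0779 to 0.117), and with scaling to library totals (0.0984).

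Near-identical copies limit the split within both families, because only reads placed at a single position were counted. The coding transcripts of Saa1 and Saa2 were 94.4% identical over aligned bases, and 14.8% of the 50-base windows of Saa1 and 13.3% of those of Saa2 also occurred in another gene's transcript. For Orm1 and Orm2, which were 91.0% identical, the shares were 20.4% and 22.7%. Saa3, Saa4 and Orm3 shared 1.78%, 1.08% and 3.59% of their windows, and Hp, Hpx and Lcn2 shared 0%. Values of Saa1, Saa2, Orm1 and Orm2 taken singly are therefore uncertain. How many of their reads were lost or misplaced was not measured.

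The scavengers of hemoglobin and heme, Hp and Hpx, were both higher in Alb/MDA-9, and theirs were the only 2 member calls that held under all 15 alternative settings. Hp (ENSMUSG00000031722, chr8:109575128-109579172, minus strand), which binds free hemoglobin, had 4088, 4935 and 4552 CPM in Alb/MDA-9, against 2385, 2684 and 2876 CPM in WT. The groups were widely apart, with no WT library near the lowest Alb/MDA-9 library. The log2 change was 0.77 (SE 0.10, 95% interval 0.57 to 0.98), a fold of 1.71, with an edgeR adjusted p of 0.000214, the smallest among the 10 genes. It ranged from 0.67 with scaling to library totals to 0.84 over the alternatives.

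Hpx (ENSMUSG00000030895, chr7:105591613-105600137, minus strand), which binds free heme, was the most abundant of the 10 in reads, with 10264, 11825 and 9913 CPM in Alb/MDA-9, against 7849, 7631 and 7889.8 CPM in WT. The WT libraries were nearly equal and all Alb/MDA-9 libraries lay above them. For Hpx the log2 change was 0.45 (SE 0.09, 95% interval 0.26 to 0.64), a fold of 1.37, with an edgeR adjusted p of 0.00457. Of 12 tested genes for receptors and breakdown of what these proteins carry, 2 passed as higher in Alb/MDA-9 and 1 as lower. The number higher was 0 with upper-quartile factors or library totals and without Alb/MDA-9 2, WT 2 or WT 3, and 1 without Alb/MDA-9 3 or WT 1; the number lower was 2 without Alb/MDA-9 1 or 3 and with library totals, voom or no filter on low counts. Cd163, the macrophage receptor for haptoglobin-hemoglobin, averaged 12.1 ± 0.557 CPM in Alb/MDA-9 and 23.5 ± 0.878 CPM in WT (SD, n = 3 each; log2 change -0.95, edgeR adjusted p 7.82e-05). It moved with the Kupffer cell and macrophage markers, 9 of 12 of which were lower, and their part in it was not tested. The higher genes were Tlr2 (log2 change 0.50, adjusted p 0.0453), a receptor reported for serum amyloid A, and Ftl1 (0.28, adjusted p 0.0290), the ferritin light chain. The Tlr2 call was lost without any single library other than Alb/MDA-9 1 (adjusted p 0.0584 to 0.159), and the Ftl1 call without Alb/MDA-9 2, WT 2 or WT 3 (0.109 to 0.140).

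Lcn2 (ENSMUSG00000026822, chr2:32384633-32388252, minus strand) showed no difference that passed the test. It had 5805, 6261 and 6479 CPM in Alb/MDA-9, against 6779, 6069.7 and 5989 CPM in WT. The groups overlapped, with the single highest library in WT. For Lcn2 the log2 change was -0.02 (SE 0.08, 95% interval -0.21 to 0.16, edgeR adjusted p 0.894), an interval that leaves out a change as large as that of Hp or Hpx. Lcn2 is also a granule protein of neutrophils. Of 12 neutrophil markers, Ngp, Camp, Ly6g, Elane and Retnlg had 0 reads in every library. S100a8, S100a9 and Mpo had 0 reads in Alb/MDA-9 and only 2, 1 and 1 over the WT libraries. Ltf and Cxcr2 had 1 and 2 reads over the Alb/MDA-9 libraries and 0 in WT. Only Csf3r and Mmp8 had enough reads to be tested. These 2 summed to 0.723 to 1.88 CPM in Alb/MDA-9 and 1.51 to 2.13 CPM in WT. Of 6 tested other lipocalin genes none was called in either direction, and their median log2 change was -0.06.

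Within a group, some libraries were the highest or lowest for many of the genes. Alb/MDA-9 2 was the highest of its group for 7 of the 10 genes and Alb/MDA-9 3 the lowest for 7. In WT, library 1 was the lowest for 6 and library 3 the highest for 6. The same count was not made over all genes tested, so it cannot be called a trait of the 10 genes. Alb/MDA-9 3 was also set off on the second principal component over all genes. Saa3 had a coefficient of variation of 34.2% in Alb/MDA-9 and 1.36% in WT, and Orm2 one of 26.1% in Alb/MDA-9 and 8.99% in WT. Over the 8508 genes with a mean of at least 10 CPM the median was 7.48% in Alb/MDA-9 and 5.68% in WT.

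**Figure D4:**
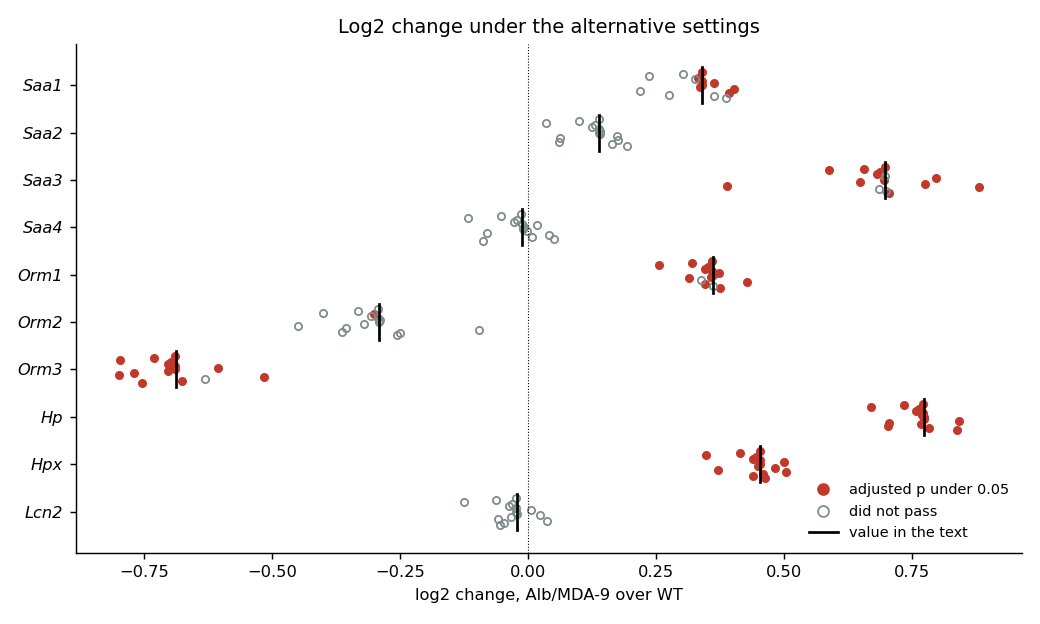
log2 change of each of the 10 genes, Alb/MDA-9 over WT, in the reported fit and under 15 alternative settings; filled points passed the adjusted p of 0.05 and black lines mark the reported value. Values of Hp stay between 0.67 and 0.84 and those of Saa3 spread from 0.39 to 0.88.

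Other positive acute phase genes, which rise in inflammation, were mixed. Of 22 tested, 6 passed as higher in Alb/MDA-9 and 3 as lower, and their median log2 change was 0.15. Fgl1, a fibrinogen-like hepatokine, averaged 844 ± 86.7 CPM in Alb/MDA-9 and 503 ± 53.8 CPM in WT (log2 change 0.75, edgeR adjusted p 0.000312). Ceruloplasmin (Cp), the copper-carrying ferroxidase, averaged 4577 ± 402 CPM in Alb/MDA-9 and 2878 ± 196 CPM in WT (0.67, adjusted p 0.000365). Serpina3n, C3, Lbp and Steap4 were the other higher genes. Hamp, which encodes hepcidin, averaged 6.28 ± 4.08 CPM in Alb/MDA-9 and 23.8 ± 3.24 CPM in WT (log2 change -1.91, adjusted p 0.00125), and Vnn1, a pantetheinase, 5.42 ± 1.63 CPM in Alb/MDA-9 and 9.22 ± 2.13 CPM in WT (-0.77, adjusted p 0.0378). Mt2, a metallothionein, was the third lower gene. The Vnn1 call was lost without Alb/MDA-9 1, Alb/MDA-9 2, WT 1 or WT 2 (adjusted p 0.0726 to 0.179). The number higher was 10 without Alb/MDA-9 3 and 3 without WT 2, and the number lower was 1 without Alb/MDA-9 2, WT 1 or WT 2.

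Negative acute phase genes are those whose products decline in plasma during inflammation. Of 12 tested, 3 were higher and 0 were lower at the threshold, with a median log2 change of -0.02. Transferrin (Trf) averaged 9481 ± 513.5 CPM in Alb/MDA-9 and 6449 ± 177 CPM in WT (log2 change 0.56, edgeR adjusted p 0.000643). The coagulation factor F12 changed by 0.60 (adjusted p 0.000132) and the vitamin D binding protein Gc by 0.33 (0.0111), the last losing its call without Alb/MDA-9 2, WT 2 or WT 3 (0.0518 to 0.0802). The number lower was 1 with voom and 1 with scaling to library totals, and the number higher was 5 without Alb/MDA-9 3.

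Cytokine ligands were scarce. Of 11, only Lif, Clcf1 and Ctf1 had enough reads to be tested, and Il6, Osm, Il22 and Il17a had 0 reads in all libraries. Il1a had 4 reads over the Alb/MDA-9 libraries and 22 over those of WT. In the same order Il1b had 1 and 5, Tnf 4 and 11, and Il11 9 and 21, all too few to be tested. Lif, a ligand of the gp130 family, averaged 35.2 ± 1.15 CPM in Alb/MDA-9 and 22.5 ± 0.808 CPM in WT (SD, n = 3 each; log2 change 0.64, edgeR adjusted p 0.000327). Of 22 cytokine receptor and signalling genes, 10 were higher and 1 was lower, with a median log2 change of 0.24. The number higher was 6 without Alb/MDA-9 2 or WT 1 and with library totals or upper-quartile factors, and the number lower was 0 without Alb/MDA-9 2, WT 1 or WT 2. The largest changes were in NF-kB feedback and subunit genes: Tnfaip3, the inhibitor A20, averaged 147 ± 11.8 CPM in Alb/MDA-9 and 77.8 ± 3.67 CPM in WT (0.92, adjusted p 1.24e-05). Nfkb1 changed by 0.70 (adjusted p 6.47e-05), Nfkbiz by 0.61 (0.000424) and Relb by 0.52 (0.00354). Of the interleukin-6 pathway, Il6st, the shared receptor gp130, changed by 0.26 (adjusted p 0.0467) and Stat3 by 0.23 (0.0485), and both calls were lost without any single library other than Alb/MDA-9 3 (0.0533 to 0.184 for Il6st, 0.0653 to 0.199 for Stat3). Over all 15 alternatives the Il6st call was lost in 10 and the Stat3 call in 12, both also with library totals and upper-quartile factors. The feedback inhibitor Socs3 had a log2 change of 0.42 and the receptor Il6ra one of -0.48, and neither passed (adjusted p 0.0503 and 0.0673). Socs3 passed as higher in 6 of the 15 alternatives and Il6ra as lower in 6. These included fits without Alb/MDA-9 3 or WT 2 for Socs3 (adjusted p 0.0273 to 0.0404) and without Alb/MDA-9 1 for Il6ra (0.0264). Il1r1, the interleukin-1 receptor, was the lower gene (-0.37, adjusted p 0.0254), and its call was lost without Alb/MDA-9 1, Alb/MDA-9 2, WT 1 or WT 2 (0.0833 to 0.106).

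Of 15 transcription factors of acute phase promoters, 2 were higher and 0 were lower (median log2 change 0.03). Klf6, a zinc finger factor, had the largest change of those higher (log2 change 0.43, edgeR adjusted p 0.00111). The C/EBP genes Cebpa, Cebpb and Cebpd had log2 changes of -0.14, 0.31 and -0.11, with adjusted p of 0.404, 0.126 and 0.755. Hnf4a and the glucocorticoid receptor gene Nr3c1 had -0.10 and -0.30 (adjusted p 0.350 and 0.0524), and Nr3c1 passed as lower in 7 of the 15 alternatives, including those without Alb/MDA-9 2 (0.0496) and with DESeq2 or voom. Of 8 glucocorticoid target genes, 5 were lower and 0 were higher, with a median log2 change of -0.42, and 1 was higher without Alb/MDA-9 3. Tat, which degrades tyrosine, averaged 10.99 ± 7.28 CPM in Alb/MDA-9 and 77.05 ± 7.69 CPM in WT (log2 change -2.80, adjusted p 7.82e-05), Pck1, of gluconeogenesis, changed by -2.73 (0.000287), Tsc22d3 by -0.50 (0.00203) and Per1 by -0.45 (0.0105).

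**Figure D5:**
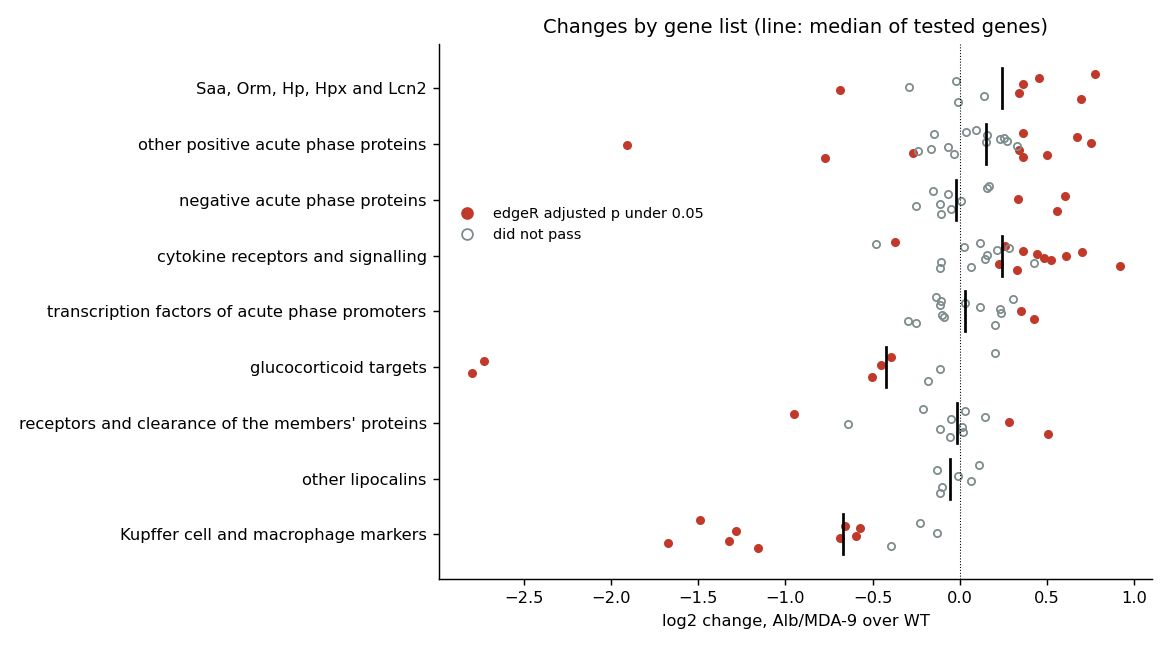
log2 change, Alb/MDA-9 over WT, of each tested gene by list; filled points passed the edgeR adjusted p of 0.05 and black lines mark the median of the tested genes of a list. Medians are 0.24 for the 10 acute phase genes, 0.15 for other positive acute phase genes, -0.42 for glucocorticoid targets and -0.67 for Kupffer cell and macrophage markers.

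Genes beside the members were read for comparison. Within 500 kilobases of the members, 69 other genes were tested, of which Alb/MDA-9 had 6 higher and 3 lower. Over all 13296 genes tested, 7.35% were called higher and 7.09% lower. Around the serum amyloid A genes 1 of 10 was called, Ldha, a lactate dehydrogenase subunit (log2 change 0.28), and this call was lost without any single library other than Alb/MDA-9 3 (adjusted p 0.0611 to 0.156). Around the orosomucoid genes 1 of 8 was called, the collagen gene Col27a1 (1.40). Around Hp the called gene was Tat, lower while Hp was higher. Around Hpx 2 of 17 were called, Cavin3 (0.51) and Ilk (0.34), and around Lcn2 2 of 24 were higher and 2 were lower, with Eng (-0.88) and Fam102a (0.60) changed most. The Cavin3 call was lost without Alb/MDA-9 1, WT 1 or WT 3 (0.0557 to 0.0786).

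Genes outside these loci whose log2 CPM followed the members most closely over the 6 libraries were ranked by Pearson's r, as a description that includes the difference between the groups. For the summed Saa reads these were Uqcr11 (r = 0.993), Ndufa1 (0.993) and Stk3 (0.992), and for the summed Orm reads Aff4 (0.999), Borcs5 (0.997) and Pgf (0.996). For Hp they were Mgam (0.9995), Primpol (0.999) and Brd2 (0.996), and for Lcn2 Slc25a27 (0.988), Coq6 (0.986) and 2610507B11Rik (0.985). These 12 genes are the highest of 13296 on only 6 libraries, and the libraries share the difference between the groups.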

How the data were processed

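The deposited tables hold raw read counts per gene, not normalised, from RNA of 6 cultured hepatocyte libraries. The submitters' processing notes name STAR 2.7.9a, Trim Galore 0.6.6, edgeR 3.18.1 and FastQC 0.11.2, and the builds GRCm38 and mm10; options and annotation release: not given in the sources used here. Libraries came from a TruSeq RNA kit, per the labels' protocols. The reverse-strand counts, 96.9% to 97.2% of stranded reads, were used. Rows for unmapped (9.22% to 10.4% of reads), multiply placed (18.7% to 20.2%), unassigned (4.90% to 6.01%) and ambiguous reads (0.791% to 0.835%) were left out.

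Genes passing filterByExpr (minimum count 10) were scaled by TMM and tested with edgeR 4.0.16's quasi-likelihood test in R 4.3.3, 3 Alb/MDA-9 against 3 WT libraries without covariates, adjusted by Benjamini-Hochberg over 13296 genes. Group values are TMM-scaled CPM, mean ± SD. The fit was tested on simulated data. Alternatives were other scalings and filters, DESeq2 1.42.0, voom (limma 3.58.1), unstranded counts, a replicate block and leaving out each library. Deviations from the group mean had correlations of -0.04, -8.73e-05 and -0.06 between same-numbered libraries. Whether these libraries shared a preparation was not tested.

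The members, gene lists and tests were chosen with earlier results of these data known, and the motifs after the promoters were seen. Named were all members, preset regulators and up to 4 called genes of largest change in each other list. Up to 2 called neighbours per locus and 3 most similar genes for each of 4 profiles were also named. The rule for lists was not applied to the Kupffer cell and macrophage, endothelial, stellate and biliary markers, whose called genes were only counted. Promoters came from RefSeq (GRCm38.p6), which matched 8 of 10 members; those of Orm1 and Hp are not shown. One gene that the naming rule covers is not reported here.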

Additional observations from a re-analysis of the deposited data

Results flagged for a closer look

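Reads on the strand opposite to Hpx, outside the counts used for the comparison, averaged 0.0245% of its sense reads in Alb/MDA-9 and 0.00822% in WT. They numbered 21, 89 and 30 in Alb/MDA-9 1 to 3 and 16, 8 and 12 in WT 1 to 3, or 0.0113%, 0.0438% and 0.0182% in Alb/MDA-9 and 0.0103%, 0.00537% and 0.00900% in WT, so that Alb/MDA-9 1 lay barely above WT 1. Without Alb/MDA-9 2 the mean of Alb/MDA-9 was 0.0148%. Alb/MDA-9 2 also had the highest opposite-strand share of all libraries for Saa1, Saa2, Saa4, Orm1, Hp and Lcn2, though not for Saa3, Orm2 or Orm3. Hpx is given here because every Alb/MDA-9 library lay above every WT library and the exact 95% binomial intervals of the pooled shares were apart (0.0213% to 0.0298% in Alb/MDA-9 and 0.00576% to 0.0114% in WT, counting error only). For Saa1 the libraries did not overlap either (0.0423% to 0.0666% in Alb/MDA-9 and 0.0338% to 0.0364% in WT), but the intervals did. Over all genes the groups did not overlap either. The annotated strand held 97.05%, 96.91% and 96.94% of stranded reads in Alb/MDA-9 1 to 3, and 97.15%, 97.17% and 97.15% in WT 1 to 3. Alb/MDA-9 2 thus had the highest opposite-strand share over all genes too. The difference between genotypes in the Hpx share was not tested.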

How the results depend on the processing

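Under 15 alternatives, Hp and Hpx kept their calls in all, Orm3 lost its call in 1, Orm1 in 2, Saa3 in 3 and Saa1 in 7. Leaving out single libraries gave 2 to 5 of the 10 genes higher and 0 to 1 lower, and 2 were lower without the filter on low counts. Other positive acute phase genes numbered 3 to 10 higher and 1 to 3 lower without single libraries, 5 lower with library totals and 1 lower with the replicate block; negative ones numbered 2 to 5 higher, and 1 lower with library totals and with voom. Over all genes, 977 were higher and 943 lower, 525 higher and 1622 lower with library totals, which moved the median log2 change to -0.11, and 503 to 1178 higher and 515 to 1208 lower without single libraries. The Saa sum had log2 changes of 0.16 to 0.31 without single libraries, 0.25 without the filter, 0.26 with DESeq2 and 0.28 with voom, passing in these last 3 and without Alb/MDA-9 3. The Orm sum had 0.25 to 0.38 without single libraries and 0.20 with library totals. With the replicate block it had 0.30 (adjusted p 0.0542), 775 genes were higher and 826 lower, and of the receptor and clearance genes 0 were higher and 2 lower. The labels link same-numbered libraries by number only (correlations of deviations -0.04, -8.73e-05 and -0.06). Signs turned for 2 genes that passed in no setting: Saa4 had log2 changes of 0.018 with voom and -0.088 to 0.049 without single libraries, and Lcn2 0.0060 with voom and -0.059 to 0.036 without single libraries. The cause of these changes was not tested. Library sizes and 3 libraries per group limit what small differences can be told.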
